A study of Mus musculus with 12 samples.

Results

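The 9 genes described here mark adipocytes or handle lipids in many cell types. They are Pparg, Cebpa, Lpl, Cd36, Fabp4, Car3, Adipoq, Plin1 and Cfd. They were taken as a fixed list of names from the 24391 genes counted in each library, and all 9 were found. RNA came from the anterior palate of C57BL/6 mouse embryos, a part of the roof of the mouth where mesenchyme turns into bone. The groups were Shox2Cre; R26RFgf8 mutants and wild type controls at embryonic day 16.5 (E16.5), and the same 2 genotypes at embryonic day 14.5 (E14.5), with 3 libraries in each of the 4 groups. In the mutants, Cre is expressed as Shox2 is, and it turns on Fgf8 from the R26R locus, so that the ligand is made by the Shox2-expressing cells and their descendants. Fgf8 is a secreted growth factor. The labels do not say whether a library came from 1 embryo or from a pool, so p-values measure only the spread between libraries, which may be technical.

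PPAR-gamma (Pparg) and C/EBP-alpha (Cebpa) are transcription factors that together drive the last steps of fat cell differentiation. Fat cells then take up fatty acids from lipoproteins, store them in droplets coated by perilipin and secrete hormones such as adiponectin. Several of these genes also work outside fat. Cd36, Fabp4 and Pparg are active in capillary endothelium and macrophages, Lpl and Car3 in muscle, and Cebpa in differentiating epidermis.

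Levels are counts per 1000000 counts (CPM), scaled by library factors so that libraries can be compared, and are given as mean ± SD with n = 3. Genes were tested with edgeR's quasi-likelihood test across the whole table and counted as called where the p, adjusted by Benjamini and Hochberg's method, was under 0.05. Fold changes are on the log2 scale with their standard error (SE). Since the tissue is a mixture, fewer cells of a type and less RNA per cell cannot be told apart in any of these values.

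Libraries held 76417891 to 125996587 counts. Fgf8 was at 16.09 ± 1.93 CPM in mutants against 0.383 ± 0.110 CPM in controls at E16.5, and at 10.8 ± 0.275 CPM in mutants against 0.316 ± 0.0938 CPM in controls at E14.5, as the labels say. In the E16.5 mutants, libraries 1 and 3 stood apart. Their 6 neural tissue markers summed to 247 and 142 CPM, against 33.5 CPM in mutant library 2 and 24.7 to 29.05 CPM in the E16.5 controls. Results at E16.5 that these 2 libraries changed are therefore also given without them. That leaves 1 mutant library at E16.5, assumed to vary like the other groups. Fewer genes over all are then called at E16.5. A lost call or a lower count without these libraries may thus come from fewer libraries alone. Xist, which marks female cells, was at 899 ± 13.4 CPM in E16.5 mutants and 404 ± 71.4 CPM in E16.5 controls, and at 486 ± 41.04 CPM in E14.5 mutants and 780.0 ± 76.9 CPM in E14.5 controls. Xist was thus higher in mutants at E16.5 and lower in mutants at E14.5, and the part of embryo sex in the results was not tested.

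Promoter sequences are shown for Pparg, Cebpa and Cd36, the expressed members with an entry in RefSeq's promoter table (build GRCm38.p6), so that the letters upstream of genes with different patterns can be set side by side. That table held 6 of the 9 members. Each sequence is the 250 bases before a start site, in the gene's direction, from 5′ to 3′. Capitals mark matches on either strand to 5 motifs: AGGTCA, the site bound by PPAR-RXR and other nuclear receptors; TTGCNNAA, a C/EBP site; TATAAA, the TATA box; CCAAT; and TGTGGT, a Runx site. No matches overlapped in the windows shown. Among 32851 promoters of this length in the table, 14% held AGGTCA, 9.56% TTGCNNAA, 12.4% TATAAA, 33.8% CCAAT and 14% TGTGGT. Pparg has several start sites. Start 3 in the table begins the transcript known as Pparg2, which is largely limited to fat cells, and start 2 lies upstream of it. The deposited counts add up all transcripts of a gene and cannot separate them.
Pparg, start 2, chr6:115362099-115362348, plus strand: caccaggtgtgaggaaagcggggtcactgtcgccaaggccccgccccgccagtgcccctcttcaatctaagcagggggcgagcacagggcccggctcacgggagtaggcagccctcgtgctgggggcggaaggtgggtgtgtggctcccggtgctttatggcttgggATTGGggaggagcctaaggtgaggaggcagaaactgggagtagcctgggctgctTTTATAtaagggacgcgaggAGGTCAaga
Pparg, start 3, chr6:115421816-115422065, plus strand: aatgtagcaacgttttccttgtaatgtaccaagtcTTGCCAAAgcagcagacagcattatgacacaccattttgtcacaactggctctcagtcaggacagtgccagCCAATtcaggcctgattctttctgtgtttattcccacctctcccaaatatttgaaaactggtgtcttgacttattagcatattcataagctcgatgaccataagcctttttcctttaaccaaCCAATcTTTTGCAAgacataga
Cebpa, chr7:35119043-35119292, plus strand: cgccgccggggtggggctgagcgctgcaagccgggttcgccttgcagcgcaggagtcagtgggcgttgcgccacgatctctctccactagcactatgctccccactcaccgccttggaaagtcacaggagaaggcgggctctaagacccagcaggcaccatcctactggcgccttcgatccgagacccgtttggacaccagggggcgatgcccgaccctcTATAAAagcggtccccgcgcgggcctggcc
Cd36, chr5:17835897-17836146, minus strand: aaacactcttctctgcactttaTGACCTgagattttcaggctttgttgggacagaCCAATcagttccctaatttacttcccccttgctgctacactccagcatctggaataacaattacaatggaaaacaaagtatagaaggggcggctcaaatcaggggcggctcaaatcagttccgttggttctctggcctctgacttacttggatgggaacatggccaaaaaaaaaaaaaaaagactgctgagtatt
Start 3 of Pparg had 2 C/EBP matches, beginning 215 and 16 bases before the start site, and start 2 had none. Both start 2 of Pparg and Cd36 held 1 AGGTCA match, beginning 9 and 228 bases before the start. Start 1 of Pparg, which is not shown, held 1 AGGTCA match beginning 28 bases before it and no match to the other motifs. Cebpa had a TATA box match beginning 30 bases before its start and no match to the C/EBP motif. No full PPAR-RXR repeat, a pair of AGGTCA with 1 base between them that 0.0335% of the promoters held, lay in any of these windows. A match is only a run of letters, and no binding was measured.

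The label of adipocyte genes was checked first on the 3 members that define mature fat cells. Adipoq encodes adiponectin, a hormone made by fat cells. It had 8, 32 and 0 counts in E16.5 mutant libraries 1, 2 and 3 and 0 in every E16.5 control, and 8, 6 and 18 counts in E14.5 mutants against 0, 12 and 6 in E14.5 controls. Plin1, the perilipin that coats the droplet of fat cells, had 14, 4 and 8 counts in E16.5 mutants and 4, 4 and 8 in E16.5 controls. At E14.5 it had 4, 21 and 10 counts in mutants and 9, 20 and 6 in controls. Cfd, the complement protease adipsin, had 2 counts in E16.5 mutant library 2, 6 in E16.5 control library 2 and 0 in the other 10 libraries.

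No library held more than 32 counts of any of these 3 genes, and at each age the groups overlapped or were both at 0. The highest level was 0.427 CPM, for Adipoq in E16.5 mutant library 2. A gene at 0 could still have been present at up to 3 counts, or 0.0234 to 0.0400 CPM depending on the library, a limit that covers counting error only. Of counts between 1 and 20, 68.6 to 73.1% were even, and if both mates of a pair were counted the limit would be higher. Leptin (Lep), a further fat cell hormone, had 0 counts in all 12 libraries. The defining genes of mature fat cells were thus at or near 0, and the data do not bear out the adipocyte label for this tissue. The list is described below by its lipid handling and regulator genes. Plin1 passed the filter on low counts at E14.5, where it was not called (adjusted p = 0.764), and Adipoq and Cfd were not tested at either age. With mutant libraries 1 and 3 left out, Adipoq passed the filter at E16.5 and was called higher in mutants (adjusted p = 0.00664), on the 32 counts of library 2 alone.

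**Figure D1:**
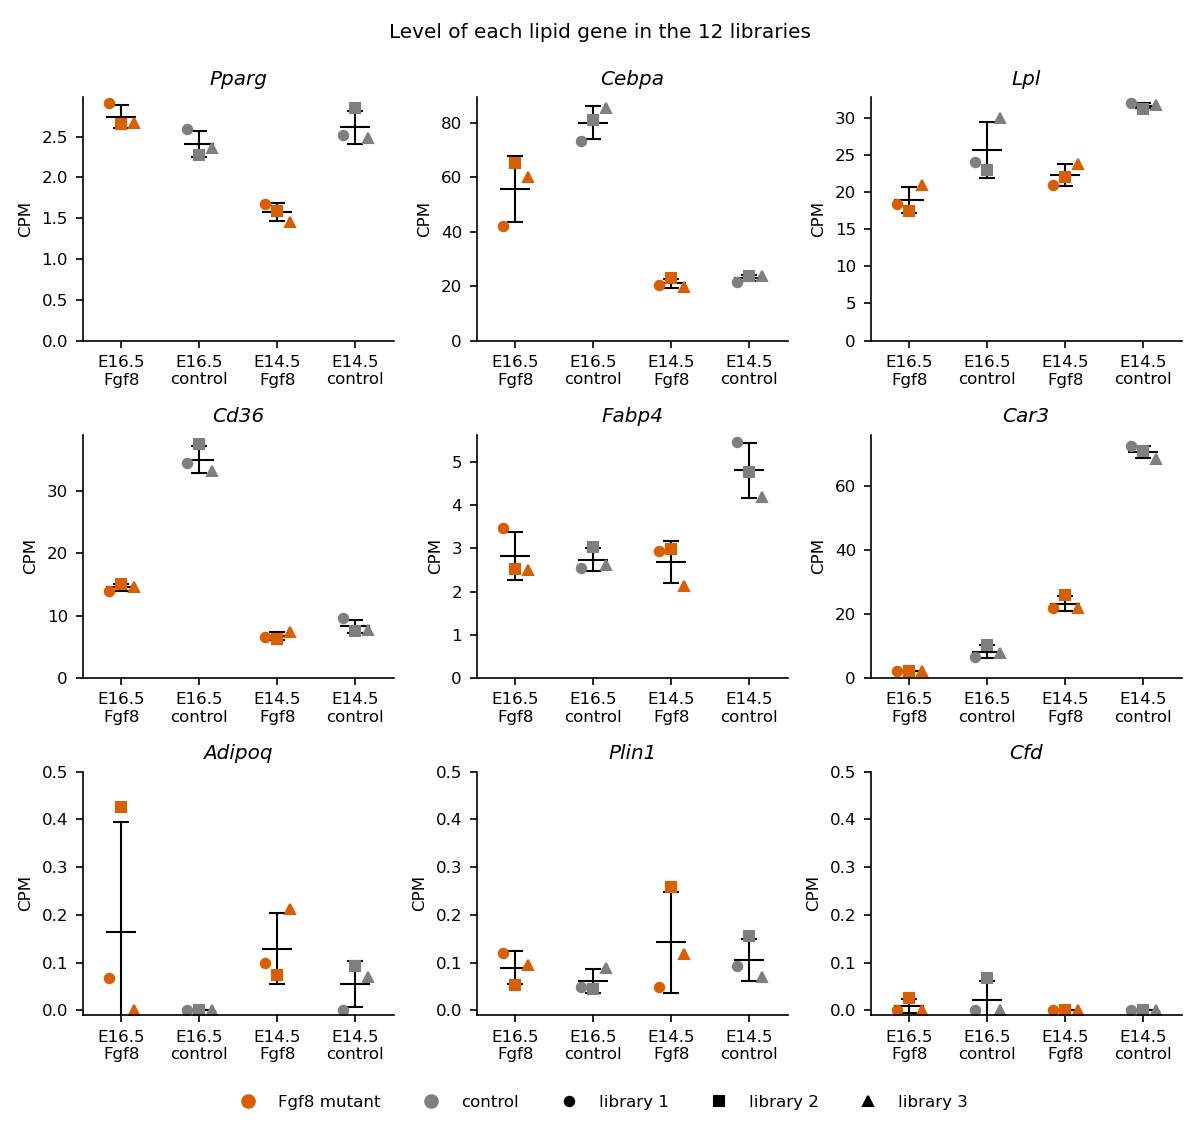
Level in CPM of each of the 9 genes in every library, with the mean and SD (n = 3) of each group as black bars and the libraries marked by shape. The 3 lower panels share an axis that ends at 0.5 CPM, and Car3, Cd36 and Cebpa show the widest gaps between groups.

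The remaining 6 members, with levels of 1.46 to 85.6 CPM in the 12 libraries, were tested in every comparison. The genotype comparison at each age asks what Fgf8 made in the Shox2 domain does to the palate. At E16.5, 4 of the 6 members tested fell and 0 rose in mutants, where 15.7% of all 17169 genes tested fell and 27.9% were called in either direction. At E14.5, 4 of 7 tested fell and 0 rose, where 4.57% of all 16650 genes tested fell and 7.52% were called in either direction. The medians over the members tested were -0.46 at E16.5 and -0.50 at E14.5, against 0.01 over all genes at both ages. The members and the gene lists used below were chosen with earlier results of these data known. Their counts and medians beside those of all genes are therefore a description and no test of the list. Car3 and Lpl fell at both ages, Cebpa and Cd36 passed the test at E16.5 alone, and Pparg and Fabp4 at E14.5 alone. The difference between the effects at the 2 ages was also tested. It was positive and called for 2 of 7 members and negative and called for 1, where 9.97% of all genes were called with a positive difference, 12.4% with a negative one and 22.3% in all. Over all genes, 4793 were called at E16.5, with 3079 and 2781 called without control library 1 or 2 and 2496 without mutant libraries 1 and 3. At E14.5 1252 were called, with 666, 630, 526 and 673 called without control library 1, control library 3, mutant library 1 or mutant library 2.

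Pparg, the nuclear receptor at the head of the fat cell programme, was at a low level throughout. It stood at 2.91, 2.65 and 2.67 CPM in E16.5 mutant libraries 1, 2 and 3, and at 2.59, 2.28 and 2.36 CPM in the E16.5 controls. At E14.5 it stood at 1.67, 1.59 and 1.46 CPM in mutants and at 2.52, 2.85 and 2.48 CPM in controls. The E14.5 mutants were thus below the 9 libraries of the other groups, whose ranges overlapped from one neighbour to the next. Pparg fell in E14.5 mutants (log2 fold change -0.73, SE 0.16, adjusted p = 0.0243), lower in 3 of 3 libraries. That call was lost when any 1 of the 6 E14.5 libraries was left out, with adjusted p between 0.0501 and 0.0715. At E16.5 the log2 fold change was 0.21 (SE 0.17, adjusted p = 0.389), though every mutant was above every control. The effect of genotype differed between ages by 0.92 on the log2 scale, E16.5 minus E14.5 (SE 0.20, adjusted p = 0.00641).

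Cebpa works with Pparg in fat cells and is also a regulator in several epithelia. It was at 42.2, 65.3 and 60.1 CPM in E16.5 mutants and at 73.6, 81.1 and 85.6 CPM in E16.5 controls. At E14.5 it was at 20.5, 22.9 and 19.8 CPM in mutants and at 21.5, 23.7 and 23.7 CPM in controls. Groups were apart at E16.5, with mutant library 1 the lowest, and overlapped at E14.5. Cebpa fell in E16.5 mutants (log2 fold change -0.50, SE 0.14, adjusted p = 0.0296) and was not called at E14.5 (-0.13, SE 0.08, adjusted p = 0.389). That fall no longer passed when control library 1 (adjusted p = 0.0557), 2 (0.101) or 3 (0.0879) was left out, nor without mutant libraries 1 and 3 (log2 fold change -0.29, adjusted p = 0.13). The difference between the ages did not pass the test (-0.39, SE 0.18, adjusted p = 0.15). It passed when E16.5 mutant library 2 was left out (adjusted p = 0.0444). In the annotation GENCODE M21, exons of Cebpa overlap those of Gm45091 on the other strand. The strand setting of the counting is not given in the sources used here, so reads of the pair cannot be told apart.

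Lpl, lipoprotein lipase, which frees fatty acids from lipoproteins on the capillary wall, fell at both ages. It was at 18.4, 17.5 and 20.9 CPM in E16.5 mutants and at 24.06, 22.9 and 29.95 CPM in E16.5 controls. At E14.5 it was at 21.0, 22.1 and 23.9 CPM in mutants and at 32.01, 31.3 and 31.7 CPM in controls. Mutants and controls did not overlap at either age, and the E14.5 controls, with the smallest spread, were the highest group. The log2 fold change was -0.41 at E16.5 (SE 0.12, adjusted p = 0.0320) and -0.50 at E14.5 (SE 0.07, adjusted p = 0.00161). At E16.5 it no longer passed when control library 1 (adjusted p = 0.0633), control library 3 (0.0881), mutant library 1 (0.0785) or mutant library 2 (0.0626) was left out. The effects differed between the ages by 0.07 (SE 0.14, adjusted p = 0.780).

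Cd36, the scavenger receptor that moves long-chain fatty acids across the cell membrane, had a fall that depended on age. Its level was 13.9, 15.1 and 14.6 CPM in E16.5 mutants and 34.5, 37.5 and 33.2 CPM in E16.5 controls. At E14.5 it was 6.47, 6.15 and 7.39 CPM in mutants and 9.53, 7.57 and 7.60 CPM in controls. The groups stood apart at both ages, by a wide gap at E16.5 and by a narrow one at E14.5. Cd36 fell in E16.5 mutants (log2 fold change -1.25, SE 0.08, adjusted p = 1.53e-05) and was not called at E14.5 (-0.30, SE 0.13, adjusted p = 0.179). The difference between ages passed the test (-0.97, SE 0.15, adjusted p = 0.000557). In the E16.5 fold changes, 5.26% of the genes tested lay at or below that of Cd36.

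Fabp4, the fatty acid carrier of fat cells, macrophages and endothelium, was called at E14.5 alone, as Pparg was. It was at 3.47, 2.52 and 2.50 CPM in E16.5 mutants and at 2.55, 3.04 and 2.61 CPM in E16.5 controls. At E14.5 it was at 2.95, 2.98 and 2.12 CPM in mutants and at 5.48, 4.77 and 4.19 CPM in controls. The E14.5 controls were above all 9 other libraries, which overlapped. Fabp4 fell in E14.5 mutants (log2 fold change -0.84, SE 0.17, adjusted p = 0.0166), which no longer passed when control library 1 was left out (0.0537). It was not called at E16.5 (0.08, SE 0.20, adjusted p = 0.814). The difference between ages passed the test (0.90, SE 0.26, adjusted p = 0.0271). It did not pass without E14.5 control library 1 (adjusted p = 0.0714), E14.5 mutant library 3 (0.0550), E16.5 control library 1 (0.0574) or 3 (0.0516), E16.5 mutant library 1 (0.0576), or mutant libraries 1 and 3 at E16.5 (0.129).

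Car3, a cytosolic carbonic anhydrase abundant in muscle and fat, had the largest fall of the list at both ages. It was at 2.15, 2.27 and 2.05 CPM in E16.5 mutants and at 6.54, 10.4 and 7.80 CPM in E16.5 controls. At E14.5 it was at 21.7, 25.9 and 22.0 CPM in mutants and at 72.6, 71.1 and 68.7 CPM in controls. All 4 groups were apart from their neighbours, in the order E14.5 controls, E14.5 mutants, E16.5 controls and E16.5 mutants. The log2 fold change was -1.91 at E16.5 (SE 0.19, adjusted p = 0.000165) and -1.61 at E14.5 (SE 0.08, adjusted p = 2.4e-06), a 3.76-fold and a 3.05-fold lower level in mutants. Both calls held in every alternative run. Car3 ranked 218 from the lowest of 17169 fold changes at E16.5 and 57 from the lowest of 16650 at E14.5. The effects differed between the ages by -0.33 (SE 0.19, adjusted p = 0.260). The authors' deposited table gave Car3 a log2 fold change of -1.78 at E16.5 and -1.50 at E14.5, and the 8 falls called here had an adjusted p between 2.79e-76 and 0.00782 in it.

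**Figure D2:**
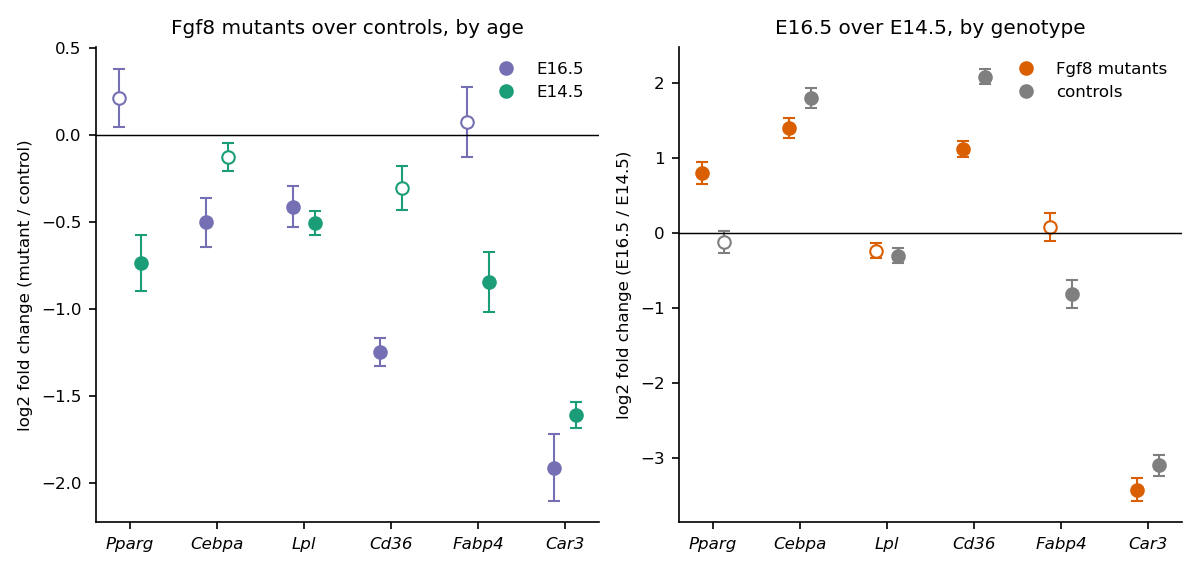
Log2 fold change with its SE for the 6 members tested in every comparison, mutants over controls at each age (left) and E16.5 over E14.5 in each genotype (right), with filled circles for adjusted p under 0.05. In the left panel Pparg and Fabp4 lie below 0 at E14.5 only, and Cd36 falls more at E16.5 than at E14.5. Car3 is the lowest in both panels.

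The change with age, E16.5 against E14.5, was fitted over all 12 libraries. In mutants 3 of 7 members tested rose and 1 fell, where 27.2% of all 17550 genes rose and 24.4% fell, 51.6% in all. In controls 2 rose and 3 fell, where 34.3% of genes rose and 32.1% fell, 66.4% in all. Cebpa rose in both, with a log2 fold change of 1.41 in mutants (SE 0.13, adjusted p = 1.67e-06) and 1.80 in controls (SE 0.13, adjusted p = 7.24e-08). Cd36 rose by 1.12 in mutants (SE 0.11, adjusted p = 1.59e-06) and by 2.09 in controls (SE 0.11, adjusted p = 1.81e-09), and these rises differed, since the test is the one given above for the genotype effects at the 2 ages. Car3 fell by 3.43 in mutants (SE 0.15, adjusted p = 1.04e-09) and by 3.10 in controls (SE 0.14, adjusted p = 5.92e-10).

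The age change of the other members depended on genotype or was small. Pparg rose in mutants (log2 fold change 0.80, SE 0.15, adjusted p = 0.000505), while in controls the log2 fold change was -0.12 (SE 0.14, adjusted p = 0.475). Fabp4 had a log2 fold change of 0.08 in mutants (SE 0.19, adjusted p = 0.738) and fell in controls (-0.81, SE 0.18, adjusted p = 0.00161). At E16.5 the 2 genotypes thus had overlapping Fabp4 levels, close to that of the E14.5 mutants. Lpl was not called in mutants (-0.23, SE 0.10, adjusted p = 0.0696) and fell in controls (-0.30, SE 0.10, adjusted p = 0.0169), which no longer passed when E16.5 control library 1 (adjusted p = 0.0645) or 2 (0.0758) was left out. Plin1 was not called in either genotype.

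The members did not share a pattern over the 12 libraries. Cebpa and Cd36 had a Pearson r of 0.94 on log2 CPM and Car3 and Lpl of 0.78, while Cebpa and Car3 had r of -0.74 and Pparg and Lpl of 0.11. These values describe 15 pairs over libraries that share their groups. Each member was also set beside the 3 genes of 13215 candidates with the highest r. For Car3 these were Panx3 (r = 0.995), a channel protein of osteoblasts and cartilage, Csgalnact1 (0.994), an enzyme of chondroitin sulfate synthesis, and Rspo1 (0.993), an enhancer of Wnt signalling. For Lpl they were Thbd (0.976), Chst11 (0.963) and Map3k5 (0.959). For Cebpa they were Cmtm6 (0.996), Cdc42bpg (0.995) and Kif1c (0.995), and for Cd36 Gstt3 (0.989), Arhgap18 (0.989) and Smpdl3a (0.988). Pparg and Fabp4 had looser matches, with Ctsa, a lysosomal peptidase, Arl4d and Mxra8 at 0.904 to 0.932 for Pparg, and Arsi, Ssr2 and C1qtnf6 at 0.913 to 0.923 for Fabp4.

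Other genes of fat cell differentiation and lipid metabolism were read from 5 lists, given from regulators to hormones. Their counts stand against 12.2% of all genes called higher and 15.7% called lower in E16.5 mutants, and 2.95% called higher and 4.57% called lower in E14.5 mutants. Of 16 regulators of adipogenesis, 7 rose and 1 fell in E16.5 mutants (median 0.12), and 0 rose and 1 fell in E14.5 mutants (median -0.15). Without mutant libraries 1 and 3, 5 rose and 1 fell at E16.5. Ebf2, a transcription factor of early fat precursors, was at 5.25 ± 1.68 CPM in E16.5 mutants and 1.78 ± 0.151 CPM in controls (log2 fold change 1.59, SE 0.26, adjusted p = 0.00274). Its level was 6.48, 3.33 and 5.93 CPM in mutant libraries 1, 2 and 3, and without libraries 1 and 3 the log2 fold change was 0.91 (adjusted p = 0.0302). Its paralog Ebf1 was at 30.3 ± 8.37 CPM in mutants and 15.3 ± 2.03 CPM in controls (1.02, SE 0.20, adjusted p = 0.00699), which did not pass with mutant libraries 1 and 3 left out (0.49, adjusted p = 0.0609). Dlk1, the membrane protein Pref-1 that holds precursors back from becoming fat cells, was at 635 ± 90.5 CPM in mutants and 323 ± 6.97 CPM in controls (1.003, SE 0.11, adjusted p = 0.000301). Gata2, which opposes Pparg in precursors, rose by 0.93 (SE 0.13, adjusted p = 0.00107).

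The regulators that rose at E16.5 thus included factors known to hold fat precursors back as well as factors that promote them. Ppargc1a, a coactivator of mitochondrial genes, was the one that fell, at 6.16 ± 0.990 CPM in mutants and 10.6 ± 0.620 CPM in controls (-0.77, SE 0.13, adjusted p = 0.00327). At E14.5 Ebf1 fell, at 37.5 ± 4.67 CPM in mutants and 50.8 ± 2.58 CPM in controls (-0.44, SE 0.09, adjusted p = 0.0163). The effect on Ebf1 differed between ages by 1.43 (SE 0.24, adjusted p = 0.00116) and that on Ebf2 by 2.15 (SE 0.35, adjusted p = 0.000856). Without mutant libraries 1 and 3 these differences were 0.94 (adjusted p = 0.00766) and 1.52 (adjusted p = 0.0151). With age Ebf2 fell by 1.07 in mutants (SE 0.24, adjusted p = 0.00225) and by 3.23 in controls (SE 0.26, adjusted p = 1.89e-07). Without those libraries its log2 fold change with age in mutants was -1.71 (adjusted p = 0.000775).

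Lipid droplet and lipolysis genes numbered 12 tested of 13, of which 1 rose and 3 fell in E16.5 mutants (median -0.16) and 0 rose and 2 fell in E14.5 mutants (median -0.05). Plin5, a perilipin of cells that burn fat, was at 2.28 ± 0.255 CPM in E16.5 mutants and 7.31 ± 0.857 CPM in controls (-1.66, SE 0.16, adjusted p = 0.000126). Pnpla2, the first lipase of stored fat, fell by 0.46 on the log2 scale (SE 0.09, adjusted p = 0.00798). With mutant libraries 1 and 3 left out its log2 fold change was -0.31 and it was not called. G0s2, an inhibitor of that lipase, rose by 0.75 (SE 0.18, adjusted p = 0.0174). At E14.5 Mgll, which releases the last fatty acid from glycerol, fell by 0.34 (SE 0.09, adjusted p = 0.0387). Without mutant libraries 1 and 3, 1 gene rose and 1 fell at E16.5.

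Of 11 tested genes of fatty acid uptake and transport, 2 rose and 2 fell in E16.5 mutants, where 27.9% of all genes were called (median -0.02), and 0 rose and 1 fell in E14.5 mutants (median -0.05). The E14.5 fall was that of Fabp3, the fatty acid carrier of muscle, at 6.15 ± 0.978 CPM in mutants and 16.03 ± 3.46 CPM in controls (-1.38, SE 0.17, adjusted p = 0.000766). Acsl1, which activates fatty acids as CoA esters, was at 113 ± 8.51 CPM in E16.5 mutants and 182 ± 6.18 CPM in controls (-0.67, SE 0.07, adjusted p = 0.000234). Gpihbp1, the capillary protein that carries Lpl across the endothelium, was at 4.67 ± 1.04 CPM in E16.5 mutants and 2.79 ± 0.323 CPM in controls (0.77, SE 0.21, adjusted p = 0.0248), while Lpl fell there. With mutant libraries 1 and 3 left out the log2 fold change of Gpihbp1 was 0.60 and it was not called.

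In fatty acid and triglyceride synthesis, 2 of 12 genes rose and 2 fell in E16.5 mutants (median 0.03), and 2 rose and 0 fell in E14.5 mutants (median -0.03). Dgat2, which completes triglycerides, was at 122 ± 11.4 CPM in E16.5 mutants and 187 ± 6.01 CPM in controls (-0.60, SE 0.08, adjusted p = 0.000726). Me1, which supplies NADPH for synthesis, was at 62.7 ± 3.34 CPM in mutants and 94.3 ± 6.82 CPM in controls (-0.57, SE 0.07, adjusted p = 0.000718). Scd1, a desaturase, rose by 0.43 (SE 0.08, adjusted p = 0.00539). With mutant libraries 1 and 3 left out its log2 fold change was 0.33 and it was not called. In the last list, of hormones, receptors and glucose uptake, 6 of 9 genes were tested, with 1 rising and 1 falling in E16.5 mutants and 0 and 1 in E14.5 mutants. Adipor2, an adiponectin receptor, was at 120 ± 4.86 CPM in E16.5 mutants and 168 ± 2.14 CPM in controls (-0.46, SE 0.06, adjusted p = 0.000796). Apln, the peptide apelin, rose at E16.5 (0.45, SE 0.10, adjusted p = 0.0109) and fell at E14.5 (-0.37, SE 0.08, adjusted p = 0.0175). With mutant libraries 1 and 3 left out its E16.5 log2 fold change was 0.32 and it was not called.

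Several of these genes had large rises with age in both genotypes. Dgat2 rose by 3.06 in mutants (SE 0.08, adjusted p = 1.39e-11) and by 3.51 in controls (SE 0.08, adjusted p = 2.54e-12). Acsl1 rose by 2.06 in mutants and by 2.85 in controls (adjusted p = 1.07e-10 and 4.02e-12, mutants and controls in that order). Cidea, a droplet protein of brown fat and of secretory epithelia, was at 3.40 ± 0.668 CPM in E16.5 mutants against 0.309 ± 0.112 CPM in E14.5 mutants, and at 4.17 ± 0.285 CPM in E16.5 controls against 0.114 ± 0.0359 CPM in E14.5 controls. The lipid droplet list rose in 6 of 12 cases and fell in 0 in mutants (median 0.34), and rose in 7 and fell in 1 in controls (median 0.37), against a median of 0.00 over all genes in both. Of all genes 27.2% rose and 24.4% fell with age in mutants, and 34.3% rose and 32.1% fell in controls.

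**Figure D3:**
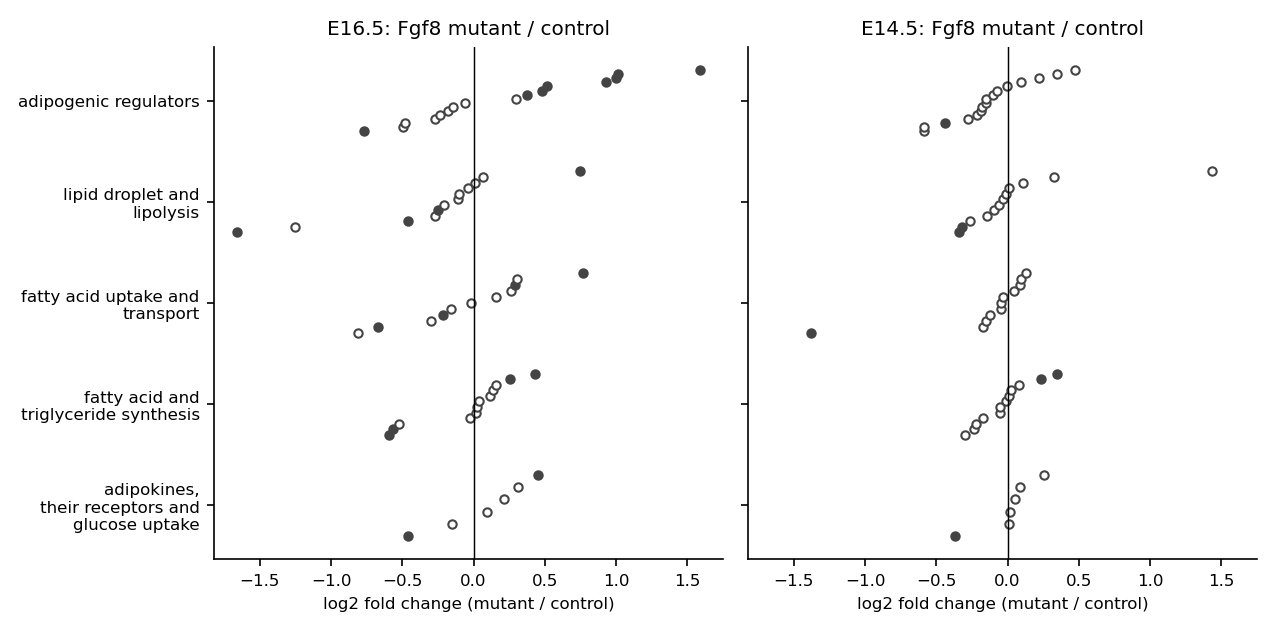
Log2 fold change of mutants over controls for each tested gene of the 5 other lipid lists, at E16.5 (left) and E14.5 (right), sorted within a list and filled where adjusted p was under 0.05. At E16.5, 7 of 16 adipogenic regulators lie to the right as filled circles, and Plin5 is the farthest to the left of all.

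Markers of the other cell types in the tissue were summed in each library and set beside the members. Counts of called markers stand beside 12.2% of all genes called higher and 15.7% called lower in E16.5 mutants. In E14.5 mutants these shares were 2.95% and 4.57%, in that order. The 10 endothelial markers summed to 457 ± 55.0 CPM in E16.5 mutants and 295 ± 9.22 CPM in controls, and to 557 ± 11.3 CPM in E14.5 mutants and 675 ± 20.8 CPM in controls. Of the 10, 9 rose at E16.5 (6 without mutant libraries 1 and 3) and 6 fell at E14.5. The endothelial sum and the levels of Pparg and Fabp4 were thus all lower in mutants at E14.5, and the sum was higher in mutants at E16.5, where neither gene was called. Lpl was lower in mutants at both ages, and at E16.5 (log2 fold change -0.41) it went the other way from the sum. The part of endothelium in the results for Pparg, Fabp4 and Lpl was not tested. Macrophage markers summed to 151 ± 1.76 CPM in E16.5 mutants and 164 ± 5.07 CPM in controls (0 of 9 called), and to 97.7 ± 15.9 CPM in E14.5 mutants and 122.8 ± 5.58 CPM in controls (2 of 9 fell).

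Skeletal muscle markers, of interest for Car3, Lpl and Fabp3, were low throughout. The 10 genes summed to 9.65 to 13.3 CPM in E16.5 mutants and 12.8 to 20.6 CPM in controls, and to 13.99 to 16.3 CPM in E14.5 mutants and 19.9 to 26.7 CPM in controls. Of these markers 0 rose and 1 fell at E16.5, Myh8, and without mutant libraries 1 and 3 0 fell. At E14.5 0 of 9 tested were called. The 8 osteoblast markers summed to 870 ± 140 CPM in E16.5 mutants and 3071 ± 339 CPM in controls, and to 3394 ± 380 CPM in E14.5 mutants and 9071 ± 1204 CPM in controls. They fell in 7 of 8 cases at E16.5 and in 8 of 8 at E14.5. The order of the 4 group means was that of Car3. In the sum, however, E14.5 mutants (3093 to 3821 CPM) and E16.5 controls (2754 to 3429 CPM) overlapped, which they did not for Car3. Most of the sum in each group was Col1a1, at 2526 ± 362 CPM in E14.5 mutants and 2524 ± 326 CPM in E16.5 controls. The part of osteoblasts in the fall of Car3 was not tested.

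The 8 epithelial markers summed to 6217 ± 1583 CPM in E16.5 mutants and 7273 ± 311 CPM in controls, and to 1387 ± 40.3 CPM in E14.5 mutants and 1085 ± 263 CPM in controls. At E16.5, 3 of 8 fell and 0 rose, or 3 fell and 1 rose without mutant libraries 1 and 3. At E14.5 0 fell and 1 rose. Within the E16.5 mutants library 1 had the lowest sum, 4540 CPM, library 3 had 6427 CPM and library 2 the highest, 7685 CPM, the same order as for Cebpa. Cd36 kept a narrow range of 13.9 to 15.1 CPM over these 3 libraries. Cebpa, Cd36, Dgat2, Acsl1 and Cidea rose with age, as did 7 of 8 epithelial markers in mutants and 8 of 8 in controls. The part of epithelium in these results was not tested.

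The 6 markers of palate mesenchyme, Shox2 among them, summed to 1938 ± 483 CPM in E16.5 mutants and 607 ± 60.96 CPM in controls, and to 1647 ± 159 CPM in E14.5 mutants and 634 ± 44.6 CPM in controls. At E16.5 4 of 6 rose and 0 fell, or 3 rose without mutant libraries 1 and 3, and at E14.5 3 rose and 0 fell. Prrx1, a transcription factor of limb and face mesenchyme, rose at both ages, by 1.92 at E16.5 (SE 0.20, adjusted p = 0.000196) and by 2.33 at E14.5 (SE 0.11, adjusted p = 2.4e-06). Prrx1 alone was at 1648 ± 474 CPM in E16.5 mutants and 441 ± 51.7 CPM in controls. At E14.5 it was at 1172 ± 138 CPM in mutants and 233 ± 30.5 CPM in controls. Shox2, Msx1 and Tbx22 were not called at E14.5. The mesenchymal sum, most of it Prrx1 in mutants, was thus higher in mutants at both ages. Ebf1, Ebf2 and Dlk1 rose at E16.5 and none of them rose at E14.5. In E16.5 mutant libraries 1, 2 and 3, Ebf1 was at 37.8, 21.3 and 31.8 CPM and Ebf2 at 6.48, 3.33 and 5.93 CPM. The mesenchymal sum there was 1386, 2148 and 2280 CPM, and the neural sum 247, 33.5 and 142 CPM. Ebf1 and Ebf2 thus had the library order of the neural sum and not that of the mesenchymal sum. The parts of mesenchyme and of neural tissue in the rise of these regulators were not tested.

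**Figure D4:**
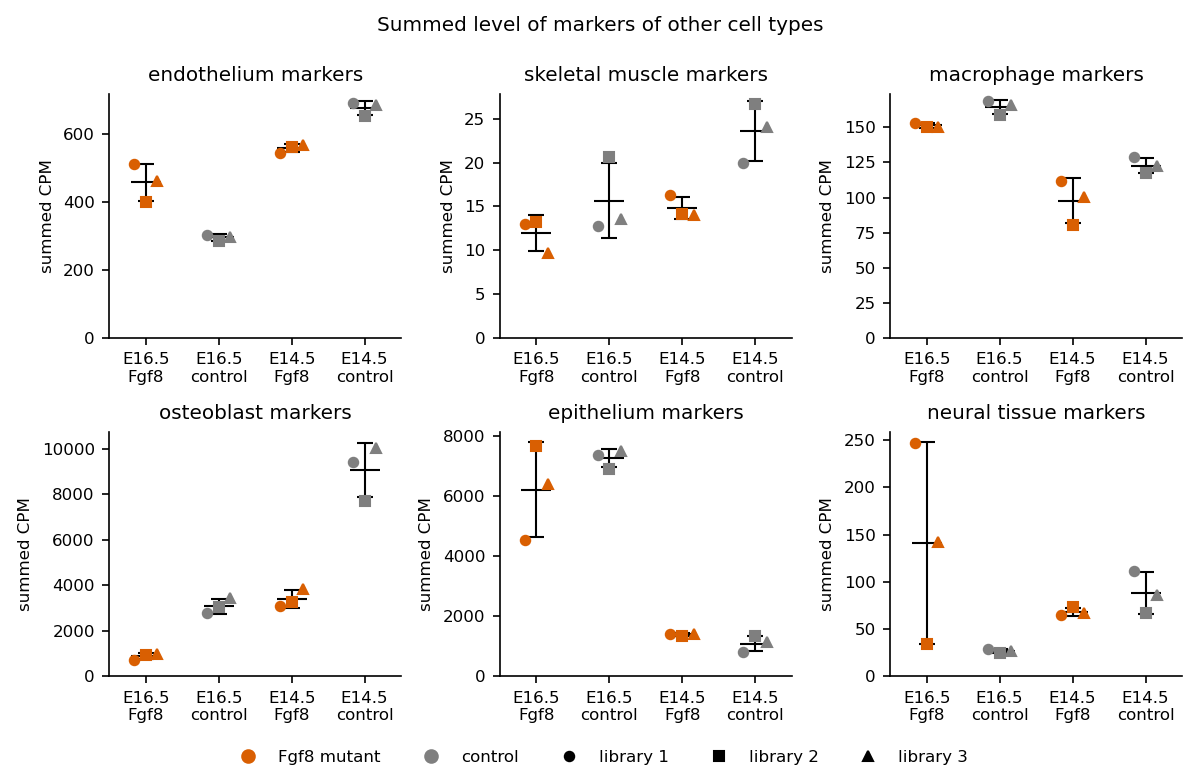
Summed CPM of the markers of 6 other cell types in every library, with the mean and SD (n = 3) of each group. Endothelial markers are higher in mutants at E16.5 and lower at E14.5, osteoblast markers are lower in mutants at both ages, and neural markers stand out in E16.5 mutant libraries 1 and 3.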

How the data were processed

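RNA was sequenced from 12 palate samples in 4 groups of 3. Per the submitters' processing notes, the authors aligned reads with HISAT2 to mm9 and counted them with featureCounts, and they deposited raw counts per gene. Versions, annotation and strand setting are not given in the sources used here. The deposited comparison tables, from DESeq2 per the same notes, gave a log2 fold change and an adjusted p-value per gene. Another 24 columns of per-sample values in deposited tables were not used. In each library 68.6 to 73.1% of counts between 1 and 20 were even, against 49.5 to 50.5% of counts from 1000 up, so that low counts may not be independent reads. The sources used here name no molecular identifiers. The names of 27 genes, with 0.251% of counts, read as dates. These genes stayed in the fits and are not named.

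The test was edgeR's (edgeR 4.0.16, run under R 4.3.3; TMM, filterByExpr, glmQLFTest), and the procedure was tested on simulated data. Genotype was compared on the 6 samples of an age. Differences between ages came from 1 fit of all 12 samples. SE is the log2 fold change over the root of F. CPM used TMM factors of the 12 libraries, and an offset of 0.5 CPM for correlations. DESeq2 1.42.0 was an alternative, with scaling, filters, a replicate block and each library left out. Leaving out E16.5 mutant libraries 1 and 3 together was chosen after seeing the data. The members, gene lists and tests were chosen with earlier results of these data known. Named genes were all members, up to 4 called genes of each other list in each comparison by size of change, and the 3 genes most like each member. Lep was named for its role, and Ppargc1a after its values were seen.

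Replicate numbers were checked as pairs by correlating deviations from group means over 17550 genes. Between the E16.5 genotypes r was 0.154, 0.187 and 0.520 for numbers 1 to 3, and between the ages in controls 0.123, 0.188 and 0.446. In every pair of groups, across genotypes and ages, number 3 had r of 0.420 to 0.520. Numbers 1 and 2 had r of 0.0207 to 0.316. Library 3 of each group thus shared deviations with the others of that number. The libraries numbered 3 also stand as a separate run in the order of the sample records, and the labels name no batch. The 3 deviations in a group sum to 0, so this alone raises r for numbers 1 and 2. These values therefore cannot tell whether the numbers pair samples. The reported fits have no block, and blocked counts of calls are given with the alternatives.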

Additional observations from a re-analysis of the deposited data

Results flagged for a closer look

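The effect of genotype differed between the ages for 3 members by the test of the difference itself. That was edgeR's quasi-likelihood test over 17550 genes, of which 22.3% were called. The effect on Xist differed too, by 1.84 on the log2 scale, E16.5 minus E14.5 (adjusted p = 1.35e-05). The part of embryo sex in these differences was not tested. Pparg had a difference of 0.92 on the log2 scale, E16.5 minus E14.5 (adjusted p = 0.00641), with mutants above controls in 3 of 3 libraries at E16.5 and below them in 3 of 3 at E14.5. The effect on Pparg at E16.5 alone was not called (adjusted p = 0.389). Its E14.5 call was lost when any 1 of the 6 E14.5 libraries was left out. Fabp4 had a difference of 0.90 (adjusted p = 0.0271), a call that was lost in 6 of 17 alternative runs. Cd36 had a difference of -0.97 (adjusted p = 0.000557), with its fall in mutants larger at E16.5.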

How the results depend on the processing

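Of 435 values of the members under alternatives, 397 kept their direction and their side of the threshold, 23 lost a call, 3 gained one and 12 changed sign. Each change of sign was in a member that was not called. Without E16.5 mutant libraries 1 and 3 these were Fabp4 at E16.5 (-0.11) and with age in mutants (-0.0629), and Plin1 (-0.55) and Lpl (-0.0206) for the difference between ages. With 1 library left out the ranges that crossed 0 were -0.11 to 0.16 for Fabp4 at E16.5, -0.0705 to 0.20 for Fabp4 with age in mutants, -0.36 to 0.79 for Plin1 at E14.5, -0.18 to 0.96 for its difference between ages and -0.99 to 0.15 for its change with age in mutants. Counts of called genes at E14.5 were 2120 with DESeq2 and 526 to 1412 with 1 library left out, against 1252. At E16.5 they were 2496 without mutant libraries 1 and 3 and 2781 to 5486 with 1 library left out, against 4793. For the difference between ages they were 2017 without those libraries and 2942 to 4723 with 1 left out, against 3921. Between the E16.5 genotypes each number matched its own number best, and the replicate block gave 6742 calls, against 4793. For age in controls it gave 12748, against 11652, in the fit of all 12 libraries. That fit includes the E14.5 mutants, whose numbers 1 and 2 did not match their own number best in any other group. No call of a member changed in either comparison. The block gave 3155 calls at E14.5 and 6055 for the difference between ages. Between the E14.5 genotypes r was 0.0428, 0.0896 and 0.434, and number 3 alone matched its own number best. The block called Cebpa for the difference (adjusted p = 0.0359) and Lpl for age in mutants (adjusted p = 0.0143), and changed no other. Without mutant libraries 1 and 3, which leaves 1 E16.5 mutant assumed to vary like the other groups, Adipoq passed the filter and was called higher (adjusted p = 0.00664) on the 32 counts of library 2 alone. Counts of 0 to 32 in Adipoq, Plin1 and Cfd limit what can be said of them, and the cause of the other changes was not tested.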
